A study of Mus musculus with 16 samples.

Results

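Read counts of 8 genes were followed across 4 kinds of mouse sensory ganglion: *Pvalb*, *Nefh*, *Nefm*, *Nefl*, *Prph*, *Spp1*, *Calb1* and *Calb2*. They were chosen by name as markers of large, myelinated afferents and proprioceptors, with peripherin (*Prph*) as the counterpart of small fibres, and they are 8 of the 22609 gene symbols counted in each library. All 8 were found. Libraries came from the trigeminal ganglion (TG), the nodose/jugular complex (NG/JG) and dorsal root ganglia (DRG) of levels L3-L5 and T10-L1, with 4 libraries for each kind of ganglion and 16 in all. Every mouse carried the same reporter genotype, Pirt cre/- with Rosa26 LSL-tdTomato/+, on C57BL/6J, and is given as a naïve male of 8 to 12 weeks. The groups therefore differ by ganglion and by no allele, agent or age. Left and right ganglia were combined, and live cells of medium to bright TdTomato signal were sorted in 2 rounds. Such a library describes cells with medium to bright signal of a Rosa26 reporter that depends on Cre from *Pirt*, a gene of peripheral sensory neurons. Cells with weak reporter signal were gated out. The labels do not say that the libraries of a ganglion came from separate animals, so p-values measure the spread between these samples, which may be technical.

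Libraries had 4735624 to 13333318 reads on genes (median 8332661), so that the floor of 3 counts used here corresponded to 0.225 to 0.6335 CPM (the count scaled to a fixed total of reads on genes). Floors and intervals cover counting error only, because molecules were not tagged. Between 29.6% and 66.6% of uniquely aligned reads fell outside genes, with the highest share in L3-L5 DRG library 4. All 12 sensory neuron markers on a fixed list, *Pirt* and *Avil* among them, were detected in each kind of ganglion, and their summed level was 804.5 to 9177 CPM per library. Markers of other cells were present as well, with all 9 satellite glia markers at 13419 to 64619 CPM in sum, 9 Schwann cell markers at 6018 to 30110 CPM and 13 macrophage markers at 49.1 to 21433 CPM. Animals are given as male, while all 16 libraries had 1279 to 8362 reads on *Xist* and none had a read on 8 Y-linked genes in the tables.

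The 3 neurofilament subunits, light (*Nefl*), medium (*Nefm*) and heavy (*Nefh*), co-assemble into the filaments that fill large axons and set their calibre, and the heavy subunit is a standard marker of myelinated A-fibre neurons. Peripherin is an intermediate filament protein of the peripheral nervous system that is prominent in small, mostly unmyelinated afferents. Parvalbumin (*Pvalb*), calbindin (*Calb1*) and calretinin (*Calb2*) are calcium-binding proteins of the EF-hand family that label subsets of afferents, and parvalbumin is best known in proprioceptors. Osteopontin (*Spp1*) is a secreted phosphoprotein made by large sensory neurons and also by macrophages and glia.

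In the assembly used for these files (mm9), *Pvalb* lies on the minus strand of chr15:78021544-78036830 and *Prph* on the plus strand of chr15:98885605-98889409. *Nefh* lies on chr11:4838757-4848067 (minus strand), *Spp1* on chr5:104864137-104870069 (plus), *Calb1* on chr4:15808411-15835211 (plus) and *Calb2* on chr8:112661402-112692110 (minus). *Nefm* (chr14:68700647-68742903, minus) and *Nefl* (chr14:68701920-68707152, plus) are annotated with 1108 bp of shared exon sequence on opposite strands, which is 19.2% of the exon length of *Nefm* and 32.8% of that of *Nefl*. Reads there cannot be assigned to a strand with this kind of library, and the counter sets aside reads that fall on both genes when its annotation holds the overlap, so levels per length of these 2 genes carry that uncertainty. The annotation used for counting is not given in the sources used here.

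RefSeq promoter entries were matched for 3 of the 8 members, *Pvalb*, *Prph* and *Spp1*. The 250 bases before the start are printed for *Pvalb*, the member with the clearest difference between ganglia, and for *Prph*, the member with the highest level. Both were taken from the RefSeq promoter set of GRCm38.p6 and found unchanged in mm9, at chr15:78036831-78037080 on the minus strand and chr15:98885355-98885604 on the plus strand. They read 5′ to 3′, and capitals mark matches to the motifs searched.
*Pvalb*: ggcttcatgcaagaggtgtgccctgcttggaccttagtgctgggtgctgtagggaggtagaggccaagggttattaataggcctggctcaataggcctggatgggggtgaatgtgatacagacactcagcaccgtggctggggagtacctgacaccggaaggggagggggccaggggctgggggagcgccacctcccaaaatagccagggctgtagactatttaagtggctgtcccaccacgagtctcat
*Prph*: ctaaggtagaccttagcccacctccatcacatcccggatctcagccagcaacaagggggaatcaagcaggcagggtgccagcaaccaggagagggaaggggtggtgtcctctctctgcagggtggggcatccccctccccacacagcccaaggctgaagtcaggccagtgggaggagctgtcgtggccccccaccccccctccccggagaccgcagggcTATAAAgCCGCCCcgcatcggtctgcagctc
The motifs were the TATA box (TATAAA), the Sp1 GC box (GGGCGG), a RUNX site (TGTGGT), a homeodomain site (TAATTA) and an AP-1 site (TGANTCA), searched on both strands. *Prph* held a TATA box at -31 and, next to it without overlap, a GC box at -24 from the start site, while *Pvalb* held none of the 5. Another *Pvalb* entry, at chr15:78034668-78034917 and not printed, held none of them either. The *Spp1* windows, also not printed, held a TATA box (-211), a RUNX site (-128) and a homeodomain site (-122). Over the 250 bases before the start in 32851 mouse promoter entries, 12.4% held TATAAA, 32.7% GGGCGG, 14.1% TGTGGT, 4.84% TAATTA and 6.75% TGANTCA. These matches describe the letters of the window and no binding was measured.

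Levels between genes were compared as RPKM, which is CPM per kilobase of exon. Averaged over the 16 libraries, *Prph* stood highest at 492 RPKM, followed by *Nefl* at 218, *Spp1* at 82.8, *Nefm* at 57.9, *Nefh* at 22.6, *Pvalb* at 19.3, *Calb1* at 1.92 and *Calb2* at 0.726. The order of *Spp1* and *Nefm* depends on the length used, which for *Nefm* was 5782 bp of exons, against 3680 bp in its longest coding transcript. The 3 neurofilament genes, *Prph* and *Spp1* had reads in all 16 libraries, *Pvalb* in 14, *Calb1* in 12 and *Calb2* in 8. By mean CPM over the 16 libraries *Prph*, *Nefl* and *Nefm* ranked 84, 128 and 376 among 22609 symbols, and *Nefh* ranked 2402. *Calb2* was near the floor in most libraries. In sorted bulk samples, fewer cells of a type and less RNA per cell cannot be told apart.

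**Figure D1:**
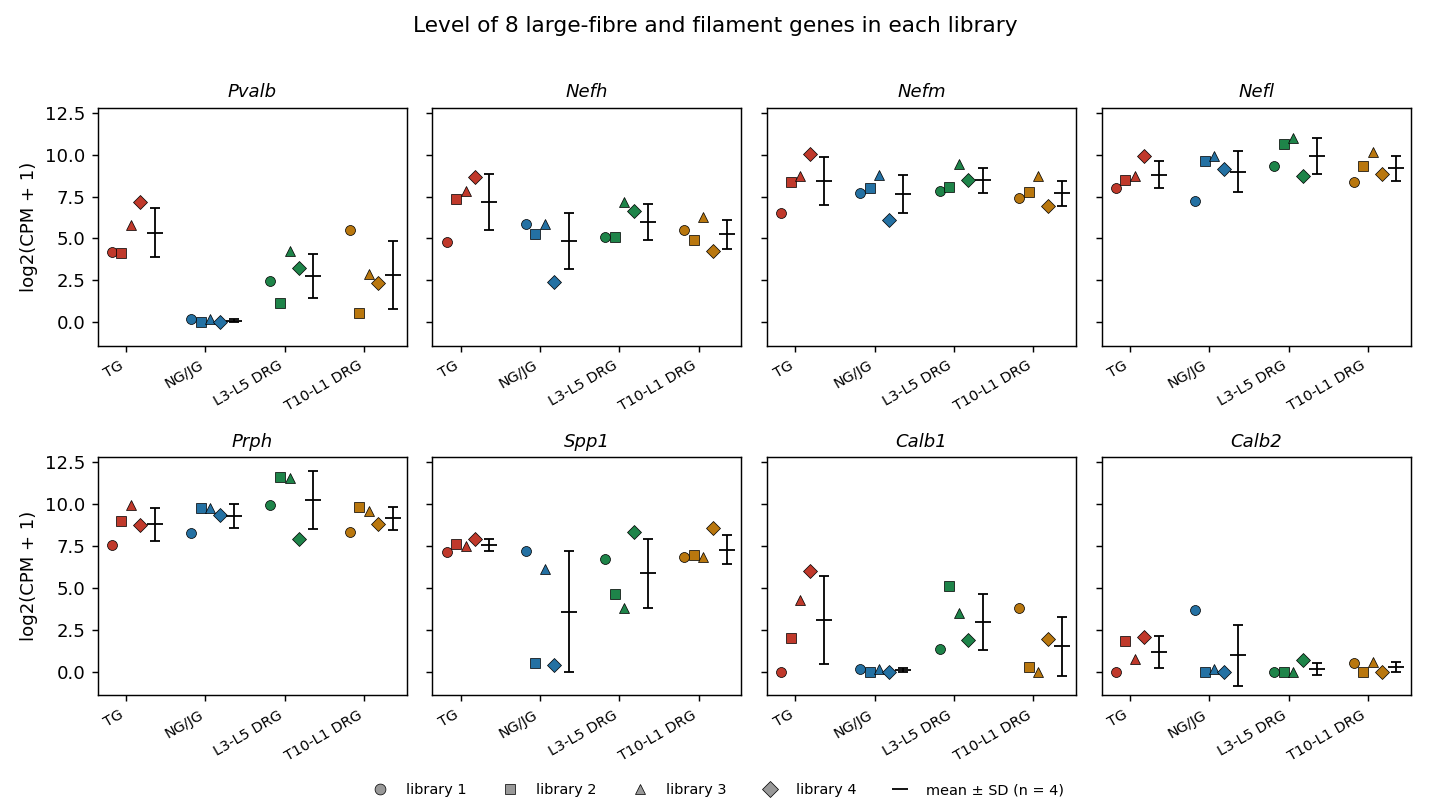
Level of each gene as log2(CPM + 1), 1 mark per library and 4 libraries per ganglion, with the mean ± SD of the log2 values at the right of each group. *Pvalb* and *Calb1* sit at or near 0 in all 4 NG/JG libraries, and most other groups overlap.

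*Pvalb* was the member with the largest separation between ganglia. Its CPM was 17.4, 16.7, 54.8 and 146 in TG libraries 1 to 4. In NG/JG the values were 0.139, 0, 0.138 and 0, which are 1, 0, 1 and 0 reads. L3-L5 DRG had 4.47, 1.19, 17.8 and 8.23 CPM and T10-L1 DRG had 43.9, 0.476, 6.33 and 3.97 CPM. Every library of the other 3 ganglia thus stood above every NG/JG library, and TG overlapped each DRG group through a single DRG library. The order of the means was TG at 58.8 ± 60.9 CPM (SD, n = 4), T10-L1 DRG at 13.7 ± 20.3, L3-L5 DRG at 7.925 ± 7.18 and NG/JG at 0.0693 ± 0.0801. The 2 DRG groups, next to each other in that order, did not differ beyond their spread, and T10-L1 DRG owed much of its mean to library 1. Pooled over libraries, the CPM in TG was 922 times that in NG/JG (exact 95% counting interval 255 to 7624, from 1373 against 2 reads). The same ratio was 138 (37.95 to 1147) for L3-L5 DRG and 163 (44.9 to 1351) for T10-L1 DRG. Single libraries carried much of these ratios, which were 474 without TG library 4, 63.6 without L3-L5 DRG library 3 and 61.6 without T10-L1 DRG library 1. Without NG/JG library 1 or 3, which held 1 read each, they were 1442 or 1439 for TG, 216 for L3-L5 DRG and 255 or 254 for T10-L1 DRG. The counting intervals do not cover differences in the number of genes with reads, whose range was lowest in NG/JG.

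*Calb1* had a similar gap in NG/JG, though not in all libraries elsewhere. NG/JG again had 1, 0, 1 and 0 reads. L3-L5 DRG had 1.56, 33.0, 10.4 and 2.74 CPM, all above NG/JG. TG had 0, 2.95, 18.7 and 63.2 CPM and T10-L1 DRG had 13.0, 0.190, 0 and 2.92 CPM, so that TG library 1 and T10-L1 DRG library 3, both without a read, overlapped NG/JG. Mean levels were 21.2 ± 29.2 CPM in TG, 11.9 ± 14.6 at L3-L5 and 4.03 ± 6.12 at T10-L1 (SD, n = 4), and these 3 neighbours overlapped. The pooled CPM of *Calb1* was 325 times that of NG/JG in TG (exact 95% counting interval 89.5 to 2693), 215.5 times at L3-L5 (59.35 to 1785) and 48.7 times at T10-L1 (13.2 to 406.5). These ratios were 109 without TG library 4, 93.9 without L3-L5 DRG library 2 and 18.7 without T10-L1 DRG library 1. Without NG/JG library 1 or 3 they were 508 or 507, 337 or 336, and 76.1 or 76.0 in the same order. *Calb2* had at most 18 reads in any library outside NG/JG library 1, which had 87 reads or 12.1 CPM. Its other values were 0 to 3.16 CPM in TG, 0 to 0.138 in the other NG/JG libraries, 0 to 0.634 at L3-L5 and 0 to 0.493 at T10-L1. It had too few counts for the test in any comparison, and its level in most libraries was at or under the floor.

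The heavy neurofilament subunit had its highest mean in TG. *Nefh* was at 26.9, 165, 226 and 401 CPM in TG and at 57.0, 38.1, 56.2 and 4.24 CPM in NG/JG. L3-L5 DRG had 32.7, 32.9, 141 and 98.0 CPM and T10-L1 DRG had 43.9, 28.4, 77.4 and 18.4 CPM. TG libraries 2 to 4 lay above all 12 other libraries, while TG library 1 fell within the range of NG/JG and T10-L1 DRG and below that of L3-L5 DRG. Means ran from 205 ± 155 CPM in TG through 76.0 ± 52.9 at L3-L5 and 42.0 ± 25.8 at T10-L1 to 38.9 ± 24.7 in NG/JG (SD, n = 4), and the last 3 overlapped with each other.

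*Nefm* followed the order of *Nefh* in part. TG had 92.0, 323, 430 and 1060 CPM, NG/JG had 210, 255, 438 and 68.3, L3-L5 DRG had 224, 267, 706 and 361, and T10-L1 DRG had 169, 216, 418 and 120. The means of 476 ± 414 (TG), 389 ± 219 (L3-L5 DRG), 243 ± 152 (NG/JG) and 231 ± 131 CPM (T10-L1 DRG) differed by less than the SD in TG, and all groups overlapped. *Nefl*, the core subunit, had its highest mean in L3-L5 DRG, with 641, 1612, 2048 and 423 CPM. It was at 257, 363, 431 and 977 CPM in TG, at 147, 796, 957 and 566 CPM in NG/JG and at 336, 638, 1148 and 454 CPM in T10-L1 DRG. L3-L5 DRG libraries 2 and 3 were the highest of the 16, and libraries 1 and 4 lay within the range of the other ganglia.

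*Prph* showed the same 2 high libraries. It was at 993, 3151, 3005 and 237 CPM in L3-L5 DRG, where library 4 was below all but 1 of the 12 libraries of the other ganglia. TG had 188, 504, 977 and 431 CPM, NG/JG had 316, 873, 882 and 652, and T10-L1 DRG had 324, 913, 784 and 457. The means were 1847 ± 1456 CPM in L3-L5 DRG, 681 ± 265 in NG/JG, 619 ± 275 in T10-L1 DRG and 525 ± 330 in TG (SD, n = 4). The last 3 groups covered nearly the same range.

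*Spp1* was even in TG and uneven elsewhere. TG had 138, 198, 184 and 246 CPM. NG/JG had 147, 0.455, 69.5 and 0.310 CPM, in which the low libraries 2 and 4 held 4 and 3 reads. L3-L5 DRG had 105, 23.8, 13.0 and 329 CPM, and T10-L1 DRG had 112, 124, 113 and 380 CPM. All groups overlapped. The summed level of the 13 macrophage markers in libraries 1 to 4 was 6381, 4347, 3613 and 12829 CPM in TG, 5144, 287, 49.1 and 536 in NG/JG, 9113, 93.7, 158 and 1101 in L3-L5 DRG, and 1290, 1436, 1729 and 21433 in T10-L1 DRG. The highest *Spp1* library of TG, of NG/JG and of T10-L1 DRG was also the one with the most macrophage marker reads, while in L3-L5 DRG it was not. Over the 16 libraries, *Spp1* had r = 0.60 with the macrophage markers (0.41 within ganglia) and 0.61 with the Schwann cell markers (0.69), on log2 scales. The part of these cells in the *Spp1* level was not tested.

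The comparisons between ganglia were made with edgeR's quasi-likelihood test over all genes with enough counts, with Benjamini-Hochberg adjustment and an adjusted p under 0.05 as the call. That test gives no SE. The SE printed is the size of the log2 fold change divided by the square root of the F statistic, and is approximate. In none of the 6 pairs of ganglia did a member pass that call. Among all genes tested, 0.0510% were called in TG against NG/JG, 0% in TG against L3-L5 DRG, 5.87% in TG against T10-L1 DRG, 0% in NG/JG against L3-L5 DRG, 0.0322% in NG/JG against T10-L1 DRG and 0% in L3-L5 DRG against T10-L1 DRG. The pairs share libraries, so their results are not independent of each other.

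For TG against NG/JG, 6 members were tested and 2 had an unadjusted p under 0.05, *Pvalb* and *Nefh*, beside 10% of all genes. *Pvalb* had a log2 fold change of 9.68 (SE 1.65, unadjusted p = 8.51e-05, adjusted p = 0.0911) and *Nefh* one of 2.66 (SE 0.86, unadjusted p = 0.0097, adjusted p = 0.242). *Nefm* (log2 fold change 1.23, SE 0.68) and *Spp1* (2.06, SE 1.32) did not pass, and *Nefl* and *Prph* differed by less than 1 SE. DESeq2, which called 4.13% of all genes, called *Pvalb* (adjusted p = 6.51e-09) and *Nefh* (adjusted p = 0.0493).

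For TG against L3-L5 DRG, 7 members were tested, and *Pvalb* and *Nefh* again had an unadjusted p under 0.05, beside 18.2% of all genes. The log2 fold change was 3.26 for *Pvalb* (SE 0.98, adjusted p = 0.12) and 1.83 for *Nefh* (SE 0.77, adjusted p = 0.239) by edgeR. *Prph* (log2 fold change -1.43, SE 0.78) and *Nefl* (-0.85, SE 0.61) lay on the L3-L5 DRG side, and *Spp1* (1.13, SE 0.82) and *Nefm* (0.68, SE 0.68) on the TG side, without passing. With 13.4% of all genes called, DESeq2 called *Pvalb* (adjusted p = 0.00724) and no other member.

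For TG against T10-L1 DRG, *Nefh* was the only 1 of 7 tested members with an unadjusted p under 0.05, beside 21.6% of all genes. Its log2 fold change was 2.69 (SE 0.74, adjusted p = 0.0599). *Pvalb* (2.51, SE 1.18), *Nefm* (1.44, SE 0.66) and *Calb1* (2.80, SE 1.89) had values on the TG side and did not pass. *Nefh* was also the 1 member that DESeq2 called (adjusted p = 0.00208), beside 16.5% of all genes.

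For NG/JG against L3-L5 DRG, 2 of 7 tested members had an unadjusted p under 0.05, beside 6.04% of all genes. The log2 fold change was -6.54 for *Pvalb* (SE 1.76, adjusted p = 0.214) and -7.13 for *Calb1* (SE 1.94, adjusted p = 0.223) in edgeR, and DESeq2 called both (adjusted p = 0.0119 and 0.00331) beside 2.84% of all genes. Fitted folds against a group with so few reads depend on the prior count, and the ratios of pooled reads above carry the counting interval. *Prph* had a log2 fold change of -1.33 (SE 0.70), *Nefl* of -0.83 (SE 0.64), *Nefh* of -0.89 (SE 0.84) and *Nefm* of -0.60 (SE 0.55), and none passed.

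For NG/JG against T10-L1 DRG, *Pvalb*, *Calb1* and *Calb2* had too few counts to be tested, and none of the other 5 members had an unadjusted p under 0.05 in edgeR (5.91% of all genes) or was called by DESeq2 (3.31%). For L3-L5 DRG against T10-L1 DRG, none of 7 tested members had an unadjusted p under 0.05 in edgeR (6.07% of all genes) or was called by DESeq2 (0.299%). *Prph* came closest in the latter pair, with a log2 fold change of 1.58 (SE 0.72, unadjusted p = 0.0556, adjusted p = 0.785).

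**Figure D2:**
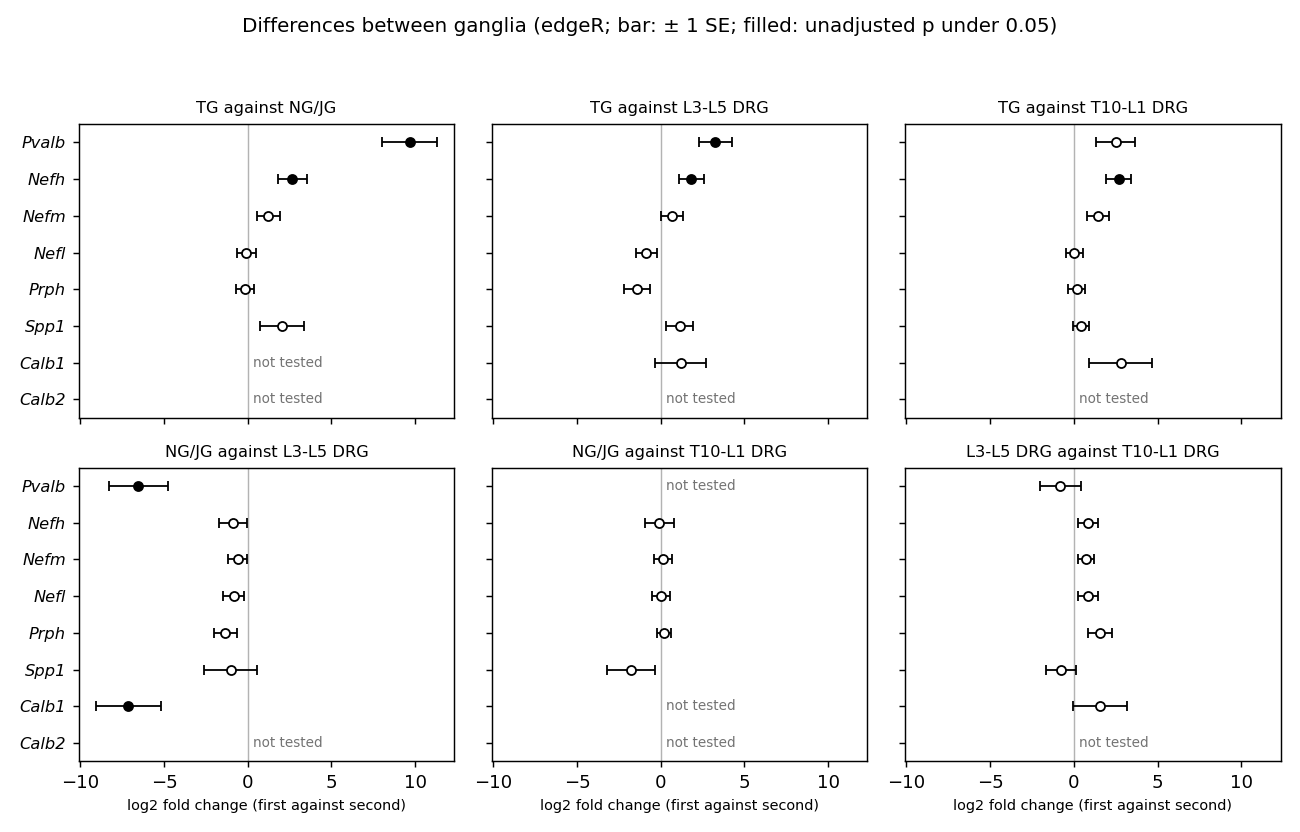
Log2 fold change of each member in the 6 pairs of ganglia, first against second group, from edgeR's quasi-likelihood fit, with bars of ± 1 SE and filled marks for an unadjusted p under 0.05. *Pvalb* and *Nefh* lie to the TG side in the 3 comparisons of TG, and *Pvalb* and *Calb1* to the L3-L5 DRG side against NG/JG. Members marked as not tested had too few counts.

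In the fit of all 16 libraries, *Pvalb* was the 1 of 7 tested members whose level differed among the 4 ganglia (adjusted p = 0.0171, edgeR's quasi-likelihood F test), where 3.01% of all genes were called. *Nefh* (adjusted p = 0.0892) and *Calb1* (adjusted p = 0.178) had an unadjusted p under 0.05 only, as did 17.5% of all genes. DESeq2's likelihood-ratio test called all 3 beside 12.1% of all genes. When NG/JG was set against the mean of the other ganglia, *Pvalb* was again called (log2 fold change -7.91, SE 1.62, adjusted p = 0.0268), beside 0.829% of all genes. *Calb1* had a log2 fold change of -7.02 (SE 2.24, unadjusted p = 0.00584, adjusted p = 0.118) and was the only other member with an unadjusted p under 0.05, beside 17.1% of all genes. *Nefh* (-1.23, SE 0.68), *Spp1* (-1.61, SE 1.09) and *Nefm* (-0.61, SE 0.53) did not pass. DESeq2, with 9.91% of all genes called, called *Pvalb* and *Calb1*. The *Pvalb* call depended on single libraries. With the 4 ganglia together it was lost without TG library 2, 3 or 4, and against the mean of the others without TG library 3 or 4 or without NG/JG library 2 or 4, when the log2 fold change was -7.86, -7.52, -7.52 and -7.55 and the adjusted p 0.0505 to 0.0664.

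TG library 1 had the lowest level in TG of every member but *Pvalb* and the lowest sum of sensory neuron markers of the 16. Without it, edgeR called *Pvalb* against NG/JG (adjusted p = 0.02, beside 2.58% of all genes). It then called *Pvalb* and *Nefh* against L3-L5 DRG (log2 fold changes 3.59 and 2.22, adjusted p = 0.0339 and 0.0347, beside 15.25% of all genes). Against T10-L1 DRG it called *Nefh* and *Nefm* (3.06 and 1.80, adjusted p = 0.00171 and 0.0217, beside 26.7%). The share of all genes called was thus higher in each of these comparisons as well.

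Oligodendrocyte markers also differed in level between TG and the other ganglia. The 11 oligodendrocyte markers summed to 17746 to 50590 CPM in TG (median 24032), against medians of 12221 in NG/JG, 11063 at L3-L5 and 11541 at T10-L1, with overlap. Their median log2 fold change was 2.09, 2.02 and 2.06 in TG against NG/JG, the L3-L5 level and the T10-L1 level. In the last pair 1 of 9 tested was called, beside 5.87% of all genes, *Mbp*, a myelin protein gene (2.06, SE 0.52, adjusted p = 0.046, edgeR). *Mog*, a marker of central myelin, had log2 fold changes of 8.41, 7.83 and 4.62 in the same order, not called in any of these pairs. It was called among the 4 ganglia together (adjusted p = 0.0226, edgeR), beside 3.01% of all genes. Both genes are named after their values were seen. The part of glial RNA in the TG differences of the members was not tested.

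Ratios of 2 genes within a library do not depend on its depth. The ratio of *Nefh* to *Nefm*, in RPKM, was 0.423, 0.739, 0.761 and 0.548 in TG. It was 0.394, 0.217, 0.186 and 0.0898 in NG/JG, 0.211, 0.178, 0.288 and 0.393 in L3-L5 DRG, and 0.376, 0.190, 0.268 and 0.222 in T10-L1 DRG. All 4 TG libraries, library 1 included, had more heavy relative to medium subunit than any of the 12 others. The mean log2 ratio was -0.73 ± 0.40 in TG, -2.36 ± 0.88 in NG/JG, -1.97 ± 0.50 at L3-L5 and -1.97 ± 0.42 at T10-L1 (SD, n = 4), so that TG was higher by 1.63, 1.23 and 1.24 on the log2 scale. Each of these had p = 0.0286 in a two-sided exact permutation test, the smallest that 4 against 4 libraries allow, and an adjusted p of 0.1905 over the 30 tests of 5 ratios in 6 pairs. The ratio was singled out after its values were seen. Leaving out 1 library at a time kept each difference between 1.06 and 1.97.

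The other ratios were less separated. *Nefh* to *Nefl* was 0.0887 to 0.444 in TG, 0.00634 to 0.329 in NG/JG, 0.0173 to 0.196 at L3-L5 and 0.0343 to 0.111 at T10-L1, with p = 0.0571 for TG against each other group (two-sided exact permutation test, adjusted p = 0.1905). Of the summed RPKM of the 3 subunits, *Nefh* made up 16.6% ± 6.76 in TG, 5.72% ± 6.47 in NG/JG, 5.29% ± 4.37 at L3-L5 and 4.58% ± 2.32 at T10-L1 (SD, n = 4). *Nefl* made up 57.3% ± 13.2, 74.1% ± 19.9, 77.1% ± 12.9 and 78.8% ± 5.51 in the same order. These shares depend on the gene lengths, which for *Nefm* were 5782 bp of exons here and 3680 bp in its longest coding transcript. With the transcript length 3 of the mean shares moved and 9 did not, and with CPM in place of RPKM the counts were the same. *Nefm* to *Nefl* ran from 0.0706 to 0.834 over the 16 libraries and overlapped in all 6 pairs. *Nefl* to *Prph*, the balance of the light subunit and peripherin, ran from 0.243 to 1.25 over the 16 libraries and overlapped in all 6 pairs, with p of 0.371 or more (exact permutation test). *Nefh* to *Prph* was 0.0668 to 0.434 in TG and 0.0145 to 0.0633 in T10-L1 DRG without overlap (p = 0.0286, exact permutation test, adjusted p = 0.1905), and its ranges overlapped between TG and the other 2 groups.

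**Figure D3:**
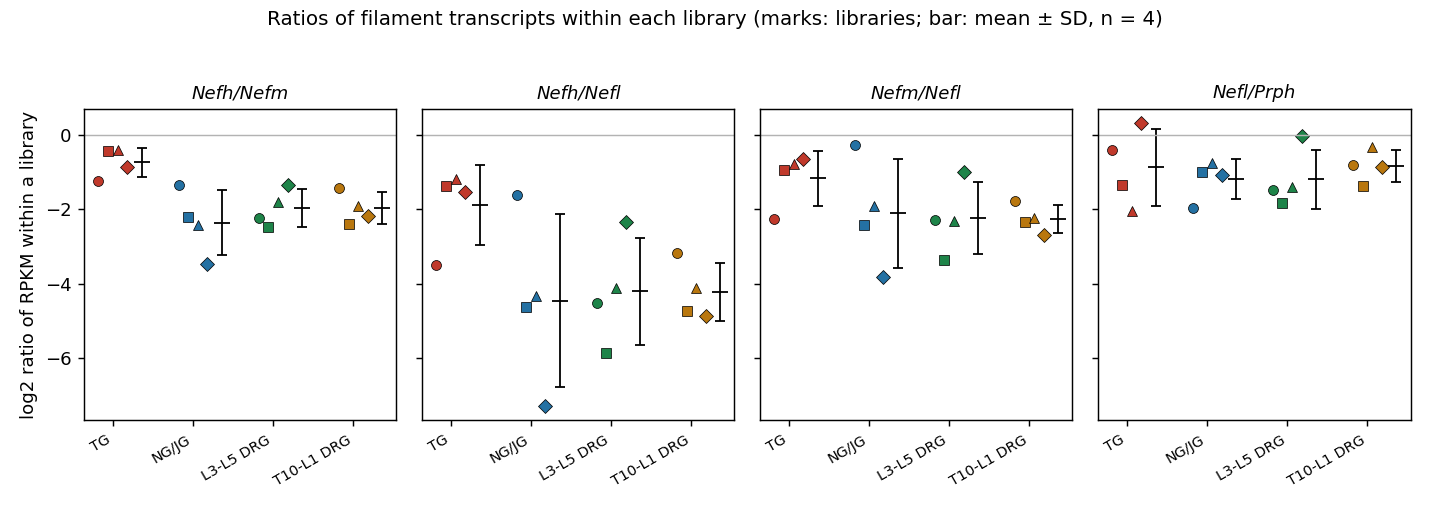
Log2 ratio of RPKM of 2 filament genes within each library, 1 mark per library and 4 libraries per ganglion, with the mean ± SD at the right of each group. For *Nefh/Nefm* the 4 TG libraries lie above all 12 other libraries, whereas the ranges of the other 3 ratios plotted, *Nefh/Nefl*, *Nefm/Nefl* and *Nefl/Prph*, overlap between ganglia.

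Over the 16 libraries the filament genes fell into 2 pairs that varied together, described here by Pearson's r of log2(CPM + 1). The libraries share depth and cell content, so these values are descriptive. *Nefh* and *Nefm* had r = 0.89 (0.93 within ganglia, after the mean of each ganglion was subtracted), and *Nefl* and *Prph* had r = 0.80 (0.76 within ganglia). Across the pairs, *Nefh* with *Nefl* had r = 0.14 and *Nefh* with *Prph* 0.034. *Pvalb* was closest to *Calb1* (0.69) and *Nefh* (0.68) among the members.

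*Prph* followed the 12 sensory neuron markers with r = 0.96 (0.95 within ganglia) and *Nefl* with 0.88 (0.88), while *Nefm* had 0.44, *Nefh* 0.077 and *Pvalb* -0.19. With the summed CPM of 10 axon injury genes, *Calb1* had r = -0.75 (-0.60 within ganglia), *Nefh* -0.68 (-0.56), *Nefm* -0.60 (-0.51) and *Pvalb* -0.56 (-0.34). That sum was mostly *Jun* and *Atf3*, with means of 2176 and 1334 CPM over the 16 libraries. *Gap43* was at 101 CPM and every other gene of the list at 34.7 CPM or less, so the values describe *Jun* and *Atf3* above all. The 10 genes summed to 4588, 952, 1746 and 992 CPM in TG libraries 1 to 4, where library 1 also had the least *Nefh*. They summed to 2690 to 10921 CPM in NG/JG, 960 to 2488 at L3-L5 and 2594 to 8188 at T10-L1. Their part in the differences of these members was not tested. With the Schwann cell markers *Prph* had r = -0.89 (-0.94 within ganglia) and *Nefl* -0.76 (-0.78). In L3-L5 DRG the neuron markers summed to 3061, 7803, 9177 and 1117 CPM in libraries 1 to 4, in the order of *Prph* but for the exchange of libraries 2 and 3. *Prph* as a percentage of that sum was 27.2 ± 7.89 in TG, 23.9 ± 3.56 in NG/JG, 31.7 ± 7.89 at L3-L5 and 25.2 ± 6.23 at T10-L1 (SD, n = 4), within the spread of the libraries. When the summed markers entered edgeR's fit as a covariate, the log2 fold change of *Prph* between TG and L3-L5 DRG went from -1.43 to 0.53, that of *Nefl* from -0.85 to 0.31, and that of *Prph* between L3-L5 and T10-L1 DRG from 1.58 to 0.044. In the same fit *Nefh* in TG had 2.73 against NG/JG, 2.07 against L3-L5 DRG and 3.14 against T10-L1 DRG. For the last pair edgeR called it together with *Nefm* at 1.99 (adjusted p = 0.0106 and 0.0159). The share of all genes called by that fit is not given here. The summed markers themselves had medians of 1993 CPM in TG, 3202 in NG/JG, 5432 at L3-L5 and 2300 at T10-L1, with overlap. This fit therefore cannot separate neuron content from ganglion, and the part of neuron content in these differences was not tested.

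**Figure D4:**
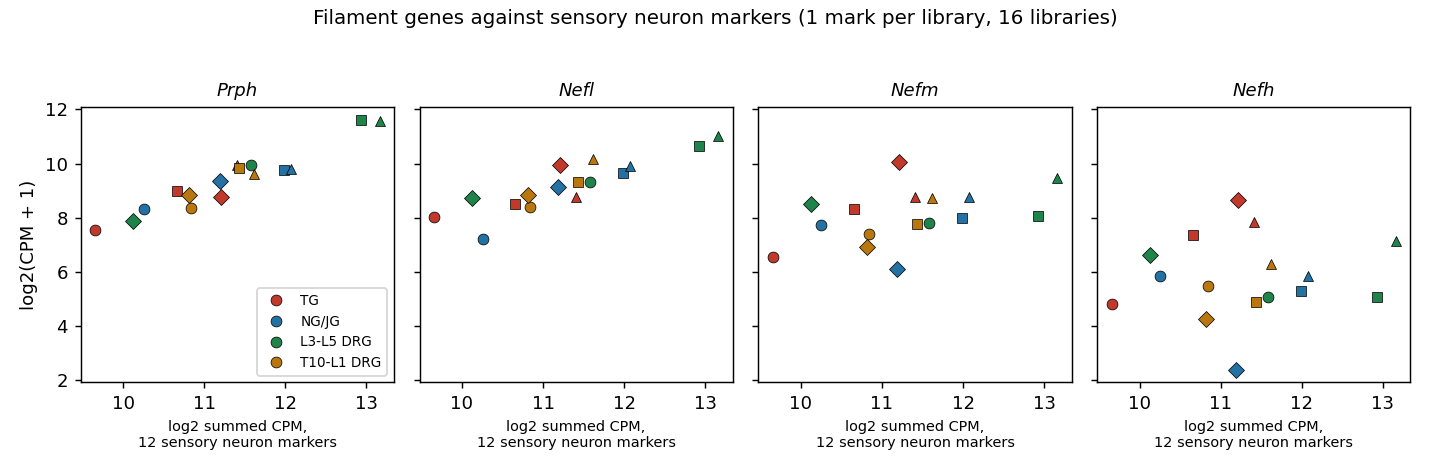
Level of 4 filament genes as log2(CPM + 1) against the log2 summed CPM of 12 sensory neuron markers, 1 mark per library, coloured by ganglion with marks as in the plot of levels. *Prph* and *Nefl* lie along a line (r = 0.96 and 0.88 over 16 libraries), and *Nefh* does not (r = 0.077).

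Genes whose level was most like that of each member over the 16 libraries were taken from the 11831 with a mean of at least 5 CPM, by Pearson's r. Those for *Prph* were *Stmn2* (0.97), *Tuba1a* (0.95) and *Tubb2a* (0.94), which encode a tubulin-binding growth protein and 2 tubulins, and those for *Nefl* were *Cend1* (0.89), *Ldb2* (0.87) and *Tubb3* (0.87), the last one of the neuron markers above. *Nefh* was most like *Nefm* (0.89), *2810428I15Rik* (0.88) and *S100a13* (0.87), and *Nefm* like *Nefh*, *Scn1a* (0.84), a voltage-gated sodium channel from the list of large-fibre genes, and *Plcxd2* (0.83). For *Pvalb* they were *2700029M09Rik* (0.86), *Fam180a* (0.81) and *Beta-s* (0.80), the last a beta-globin gene. *Spp1* was most like *Anxa3* (0.96), *Ly6a* (0.93) and *Igfbp5* (0.93), and *Calb1* like *Gm4980* (0.82), *Panx2* (0.82) and *Lingo1* (0.82). *Calb2* was below 5 CPM on average and was left out.

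Other genes of the same classes were counted from lists. Of 25 further genes of large-fibre neurons, 19 to 24 were tested in a comparison. In TG against T10-L1 DRG 1 of 23 was called, beside 5.87% of all genes. It was *Ldhb*, a lactate dehydrogenase subunit, higher in TG (log2 fold change 2.18, SE 0.44, adjusted p = 0.0272, edgeR) at 387 to 1266 CPM against 189 to 389 CPM. Among the 4 ganglia together 2 of 24 were called by edgeR, beside 3.01% of all genes. They were *Ldhb* (adjusted p = 0.00989) and *Ntrk2* (adjusted p = 0.0357), the receptor of brain-derived neurotrophic factor. None was called in the other 5 pairs or for NG/JG against the mean of the others. *Ntrk2* was at 99.3 to 189 CPM in TG, 358 to 762 in NG/JG, 223 to 357 at L3-L5 and 298 to 624 at T10-L1, so that TG was below each other ganglion without overlap, the opposite side from *Nefh* and *Ldhb*. The median log2 fold change of the list was 0.05 in TG against NG/JG (-0.05 over all genes), 0.59 against L3-L5 DRG (-0.03) and 0.25 against T10-L1 DRG (-0.03).

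A list of 18 small-fibre genes, with *Trpv1*, *Calca* and *Scn10a* among them, had a summed level of 846 to 3244 CPM in TG, 327 to 1279 in NG/JG, 731 to 10097 at L3-L5 and 1328 to 3216 at T10-L1. Its median log2 fold change was -2.29 in TG against L3-L5 DRG and -2.66 in NG/JG against L3-L5 DRG, with 0 of 15 called in each, and 10 and 7 had an unadjusted p under 0.05, all on the L3-L5 DRG side, beside 18.2% and 6.04% of all genes. The 12 sensory neuron markers lay on the same side in both pairs, with medians of -1.17 and -1.05, and L3-L5 DRG library 4, the lowest of its group in those markers, was also the library with the small-fibre genes at 731 CPM. In NG/JG against the mean of the others, 2 of 16 were called by edgeR's quasi-likelihood test, beside 0.829% of all genes. Both were lower in NG/JG and are named here after their values were seen. They were *Calcb* (log2 fold change -5.94, SE 0.83, adjusted p = 0.00204), which encodes a calcitonin gene-related peptide, and *Mrgprd* (-7.13, SE 1.27, adjusted p = 0.0135), a receptor of non-peptidergic nociceptors. The same 2 were called among the 4 ganglia together, beside 3.01% of all genes.

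Of 15 other intermediate filament genes and their partners, 2 of 12 tested were called higher in TG than in T10-L1 DRG (*Nes* and *Bfsp2*), beside 5.87% of all genes. In NG/JG 1 of 14 was called higher than in the mean of the others, beside 0.829% of all genes. None was called in the other pairs. Among the 4 ganglia together 2 of 14 were called (*Krt18* and *Lmna*), beside 3.01% of all genes. *Nes*, *Bfsp2* and *Krt18* are named here after their values were seen. The most abundant were *Vim*, *Lmna* and *Dst*. *Vim*, encoding vimentin, was at 502 to 1673 CPM over all ganglia. *Lmna*, encoding the nuclear lamins A and C, was the gene called for NG/JG (log2 fold change 1.48, SE 0.31, adjusted p = 0.03), at 853 to 2473 CPM there, 453 to 786 in TG, 250 to 729 at L3-L5 and 556 to 1362 at T10-L1. *Dst*, a cytoskeletal linker, was at 280 to 649 CPM over all ganglia.

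Among 33 EF-hand calcium-binding genes, a list that holds *Pvalb*, *Calb1* and *Calb2*, 6 of 28 tested were called in TG against T10-L1 DRG, 5 higher and 1 lower in TG, beside 5.87% of all genes, and the median log2 fold change was 1.05 (-0.03 over all genes). *S100b*, which glia express strongly, was among the 5 (log2 fold change 2.63, SE 0.41, adjusted p = 0.0254, edgeR). The 9 satellite glia markers went both ways in the same pair, with a median log2 fold change of 0.21. On the TG side 2 had an unadjusted p under 0.05, *Fabp7* (1.58, SE 0.46) and *Apoe* (1.61, SE 0.52). On the T10-L1 DRG side 3 did, *Cdh19* (-1.96, SE 0.45, called with an adjusted p of 0.0374 in edgeR), *Gja1* (-1.09, SE 0.39) and *Ednrb* (-0.96, SE 0.40). These genes are named after their values were seen, and the part of glia in the count was not tested. Among the 4 ganglia together 6 of 29 were called, *Pvalb* included, beside 3.01% of all genes. For NG/JG against the mean of the others 2 of 29 were called, beside 0.829% of all genes. These were *Pvalb*, lower, and *Hpcal4*, named after its values were seen, higher. No gene of the list was called in the other 5 pairs. Among its abundant genes, *Calm2*, a calmodulin gene, was at 568 to 1585 CPM over all libraries and *S100a6* at 435 to 1343 CPM in TG, 265 to 443 in NG/JG, 503 to 912 at L3-L5 and 345 to 624 at T10-L1. Of 10 osteopontin receptor genes, none was called in any of the 8 comparisons, and 0 to 2 had an unadjusted p under 0.05 in edgeR, beside 5.91% to 21.6% of all genes. The most abundant were *Itgb1* (88.9 to 666.5 CPM), *Cd44* (63.6 to 804) and *Itgav* (16 to 267).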

How the data were processed

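RNA of sorted cells was sequenced by the authors as single 50-base reads, aligned to mm9 with TopHat2 and counted per gene with HTSeq, and the deposited values are raw read counts per gene symbol. Versions of these tools and the gene annotation are not given in the sources used here. Rows that name no gene were kept out of library sizes: reads outside genes were 29.6% to 66.6% and ambiguous reads 0.303% to 0.688% of the reads in a table.

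CPM was computed from reads on genes and RPKM from the union of exons (GENCODE M1 on the same assembly), with lengths for 21679 of 22609 symbols, 52 of them through a synonym. Genes were filtered with filterByExpr, scaled by TMM and tested with edgeR 4.0.16 (quasi-likelihood, Benjamini-Hochberg, threshold 0.05) in R 4.3.3: each of 6 pairs on its own 8 libraries, and 4 ganglia together and NG/JG against the mean of the others on all 16. DESeq2 1.42.0 was an alternative. Ratios of RPKM were tested with exact permutation tests in scipy 1.17.1. The fit was tested on simulated data.

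Members, gene lists and tests were chosen with earlier results of these data known. Named were all 8 members, the 3 genes most like each, and, from each of 4 lists of related genes, those called, or the 3 most abundant where none or over 3 were called. 1 gene that this rule names is not reported here. Of the lists for other cells not given in the report, summed CPM per library was 1.86 to 89.3 for skeletal muscle, 3.51 to 431 for central neurons, and for pituitary 70.8 to 9501 in TG and at most 22.8 elsewhere.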

Additional observations from a re-analysis of the deposited data

Results flagged for a closer look

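In 4 of 32 groups of 4 libraries, 1 library stood apart from the other 3 by a gap above Dixon's 95% critical value for 4 samples. That value assumes normally distributed levels, whereas the CPM used here were often skewed or 0. The 4 groups therefore cannot be set against a rate given by chance. *Pvalb* in T10-L1 DRG library 1 was at 43.87 CPM (287 reads), while the other 3 libraries had 0.476 to 6.33 CPM. *Spp1* in T10-L1 DRG library 4 was at 379.8 CPM (5064 reads) against 112.5 to 124 CPM, and the macrophage markers of that library summed to 21433 CPM against 1290 to 1729 CPM. *Calb2* in NG/JG library 1 was at 12.1 CPM (87 reads) against 0 to 0.138 CPM, and the macrophage markers there summed to 5144 CPM against 49.1 to 536 CPM. *Calb2* in L3-L5 DRG library 4 was at 0.6335 CPM, which is 3 reads and the floor used here, against 0 in the other 3 libraries. A group with reads in only 1 library passes this rule whatever its count. The part of the macrophage level in these values was not tested.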

How the results depend on the processing

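The number of members called was 0 in each of the 6 pairs and 1 in each of the 2 comparisons over all 16 libraries. DESeq2 called 2 in TG against NG/JG, 1 in TG against L3-L5 DRG, 1 in TG against T10-L1 DRG, 2 in NG/JG against L3-L5 DRG, 3 among the 4 ganglia and 2 in NG/JG against the mean of the others. In TG against NG/JG, no filter on low counts gave 1 call (*Pvalb*, adjusted p = 0.0154, edgeR) and 1 fit of all 16 libraries also gave 1 (*Pvalb*, adjusted p = 0.011, edgeR). The summed sensory neuron markers as a covariate, chosen after seeing the data, gave 2 calls in TG against T10-L1 DRG and turned the log2 fold changes in TG against L3-L5 DRG to 0.31 for *Nefl* and 0.53 for *Prph*. With the share of reads outside genes as a covariate, also chosen after seeing the data, no count of calls differed. Shares of all genes called are given in this report for the main fit, DESeq2 and the fits without TG library 1 only. Calls of the other fits have no such background beside them. Leaving out 1 library gave 0 to 1 calls in TG against NG/JG, 0 to 2 in TG against L3-L5 DRG, 0 to 2 in TG against T10-L1 DRG, 0 to 2 among the 4 ganglia, 0 to 1 in NG/JG against the mean of the others and 0 in the other 3 pairs. Without TG library 4, *Nefm* in TG against L3-L5 DRG went to a log2 fold change of -0.049, and values without 1 library there ran from -0.049 to 1.18. The cause was not tested. RLE factors changed no call. With the replicate number as a block, the number called was 0 in each of the 6 pairs and 1 in each of the other 2 comparisons. After the group means were subtracted, correlations of same-numbered libraries between ganglia ran from -0.117 to 0.169. Such values cannot decide whether same-numbered libraries shared an animal or a sort, which the labels do not say. Depth limits *Calb2*, which was not tested in any comparison, and *Pvalb* and *Calb1* in NG/JG, with 2 reads each.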
